A study of Mus musculus with 8 samples.

Results

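The Serpina3 cluster is a run of serpin genes that lie next to each other on mouse chromosome 12, and 9 of its members are described here in hippocampus: Serpina3b, Serpina3c, Serpina3f, Serpina3g, Serpina3h, Serpina3i, Serpina3k, Serpina3m and Serpina3n. They were taken as all non-control array probes whose gene name in the scanner files was one of these 9, which gave 11 probes for the 9 genes out of 30139 named genes on the array. The cluster was selected on measured values, because the Serpina3n signal differed between the genotypes compared below, so that difference and those of its neighbours are given as a description and not as a test. The question was whether Serpina3n was higher alone or together with its neighbours.

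Agilent one-colour arrays were used to profile the whole hippocampus of C57BL/6 adults (3 to 6 months). Control mice (WT) had loxP-flanked copies of Ctcf on both chromosomes (Ctcf loxP/loxP) and were Camk2a-Cre negative. Conditional knockout mice (CKO) had the same Ctcf loxP/loxP alleles and were Camk2a-Cre positive; the Camk2a promoter drives Cre mainly in excitatory forebrain neurons, so glia, vessels and choroid plexus are not its main targets. Only CKO mice carried Cre, and effects of Cre and of Ctcf loss cannot be told apart. Each genotype had 3 pools of RNA from 3 mice. The makeup of the pools was matched: 2 females with 1 male at 19 to 23 weeks formed pool 1, 3 females at 18 to 19 weeks formed pool 2, and 3 males at 15 to 17 weeks formed pool 3. Mice of both genotypes had gone through open field, sensorimotor, water maze and social approach tests. The first pool of either genotype had 2 arrays, which were averaged, so 8 arrays stood for 6 pools and n is 3 pools per genotype.

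Serpins are protease inhibitors that present a flexible reactive centre loop as bait; the protease cleaves the loop and is trapped in a covalent complex. The sequence of this loop sets which proteases are bound. Mice carry a series of Serpina3 genes where humans have the single gene SERPINA3, which encodes alpha-1-antichymotrypsin, an acute phase protein. Serpina3n is the member best known in the nervous system: it is secreted, can inhibit granzyme B and leukocyte elastase, and is a widely used marker of reactive astrocytes. Serpina3g (also known as Spi2A) is an intracellular inhibitor of cysteine cathepsins that is induced in immune cells, and Serpina3k and Serpina3m are known mainly as liver-secreted serpins.

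In the RefSeq gene table the named cluster runs in the order Serpina3a, 3b, 3c, 3f, 3g, 3h, 3i, 3j, 3k, 3m and 3n, with pseudogenes between them, and Serpina3n is the last gene on its side, followed by Gsc and Dicer1. RefSeq lists Serpina3h as a transcribed pseudogene. Because these genes arose from each other, the probes were compared first, as shared bases would let one transcript give signal on the probe of another. All were 60 bases long. The first 30 bases of the Serpina3n probe are shown because its signal carries the main observation:

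Serpina3n: ttggcatgcctggattagatagtgactaac

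The Serpina3n probe shared a run of at most 7 bases with any other Serpina3 probe, and 0 other probes on the array shared a run of 20 bases or more with it. The probes of Serpina3h and the second of the Serpina3i probes were much closer, and they are shown whole with their longest common run in capitals:

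Serpina3h: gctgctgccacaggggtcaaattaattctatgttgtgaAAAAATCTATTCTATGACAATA

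Serpina3i (second probe): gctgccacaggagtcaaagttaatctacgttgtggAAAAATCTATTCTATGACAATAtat

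These 2 probes had 22 bases in a row in common and matched at 51 of 57 overlapping bases (89.5%). Signal on them therefore cannot be assigned to Serpina3h or Serpina3i with certainty. The second Serpina3f probe and the Serpina3b probe formed another close pair, with 47 of 53 overlapping bases identical (88.7%); 30 bases of each are shown around their longest common run:

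Serpina3f (second probe): caggagctAATGATCAATAAACatataact

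Serpina3b: gaggagcaAATGATCAATAAACgtatccct

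The Serpina3b probe was also close to the second probe of Serpina3a, a cluster gene not well above background on any array, with 42 of 50 overlapping bases identical (84.0%) and a common run of 16 bases.

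The region upstream of Serpina3n had its closest match in the cluster at Serpina3c. The 250 bases before each start site, from RefSeq on GRCm38.p6, are shown with the bases that differ in capitals; Serpina3n lies on the plus strand (chr12:104406458-104406707) and Serpina3c on the minus strand (chr12:104153873-104154122), and both are written 5′ to 3′ in the direction of transcription.

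Serpina3n: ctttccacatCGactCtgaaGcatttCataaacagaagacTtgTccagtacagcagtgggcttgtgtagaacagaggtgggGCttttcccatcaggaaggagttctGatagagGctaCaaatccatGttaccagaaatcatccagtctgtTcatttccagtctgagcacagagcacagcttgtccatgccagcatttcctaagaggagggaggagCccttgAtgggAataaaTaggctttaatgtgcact

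Serpina3c: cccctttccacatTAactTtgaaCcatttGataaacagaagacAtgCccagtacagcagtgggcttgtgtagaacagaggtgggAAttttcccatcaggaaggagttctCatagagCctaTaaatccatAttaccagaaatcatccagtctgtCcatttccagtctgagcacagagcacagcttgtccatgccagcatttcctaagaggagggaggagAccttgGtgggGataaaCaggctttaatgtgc

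Of 247 aligned positions, 229 were identical (92.7%) and 18 were substituted. The other close matches among promoter windows of 300 bases (250 before to 50 after the start) were Serpina3f with Serpina3i (86.9% for the second Serpina3f window, over 183 aligned bases, and 83.3% for the first), the first Serpina3f window with Serpina3g (83.7%) and Serpina3g with Serpina3i (82.1%). The table had no window for Serpina3h, Serpina3k or Serpina3m. The windows of Serpina3n and Serpina3c formed the most alike pair of different genes in this table.

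Serpina3n gave the largest difference between genotypes in the cluster. Values are log2 of the processed spot intensity minus log2 of the 75th percentile of the array, so 0 is the 75th percentile. The Serpina3n probe read -2.78, -1.54 and -2.68 in WT pools 1, 2 and 3. It read -1.34, 0.09 and -1.25 in CKO pools 1, 2 and 3. No WT pool reached the lowest CKO pool, with pool 2 the highest in each genotype and a gap of 0.20 between the highest WT pool and the lowest CKO pool. The WT mean was -2.33 ± 0.69 (SD, n = 3) and the CKO mean -0.83 ± 0.80, a difference of 1.50 (SE 0.45), or 2.83-fold. In whole tissue, more cells of a type and more RNA per cell cannot be told apart. The probe was well above background on 4 of 4 arrays of each genotype, with processed signals from 218 to 1592 on WT arrays and from 972 to 5440 on CKO arrays.

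The spread of Serpina3n within a genotype was shared between genotypes. The difference between same-numbered pools was 1.43 for pool 1, 1.63 for pool 2 and 1.43 for pool 3, with an SD of 0.12 against SDs of 0.69 and 0.80 within the genotypes. For pool 1 the difference was 1.15 between first arrays and 1.71 between second arrays. Repeat arrays of the same RNA thus lay further apart than the 3 pairs did, which limits what the SD of 0.12 shows. Same-numbered pools had the same sex and age makeup, and the female pool 2 was the highest in both genotypes. They also shared their slides: both pools 2 were on slide 1, both pools 3 on slide 2, and each pool 1 on both. With 1 pool of each makeup per genotype, sex, age, slide and pool cannot be told apart. Within slide 1 the difference was 1.39 and within slide 2 it was 1.57. The second array of WT pool 1 stood apart from the others: its Serpina3n signal was 1.01 below that of its mate on the same RNA, against 0.45 below for the second array of CKO pool 1. Without the second array of WT pool 1 the Serpina3n difference was 1.33, and with first arrays alone it was 1.41.

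**Figure D1:**
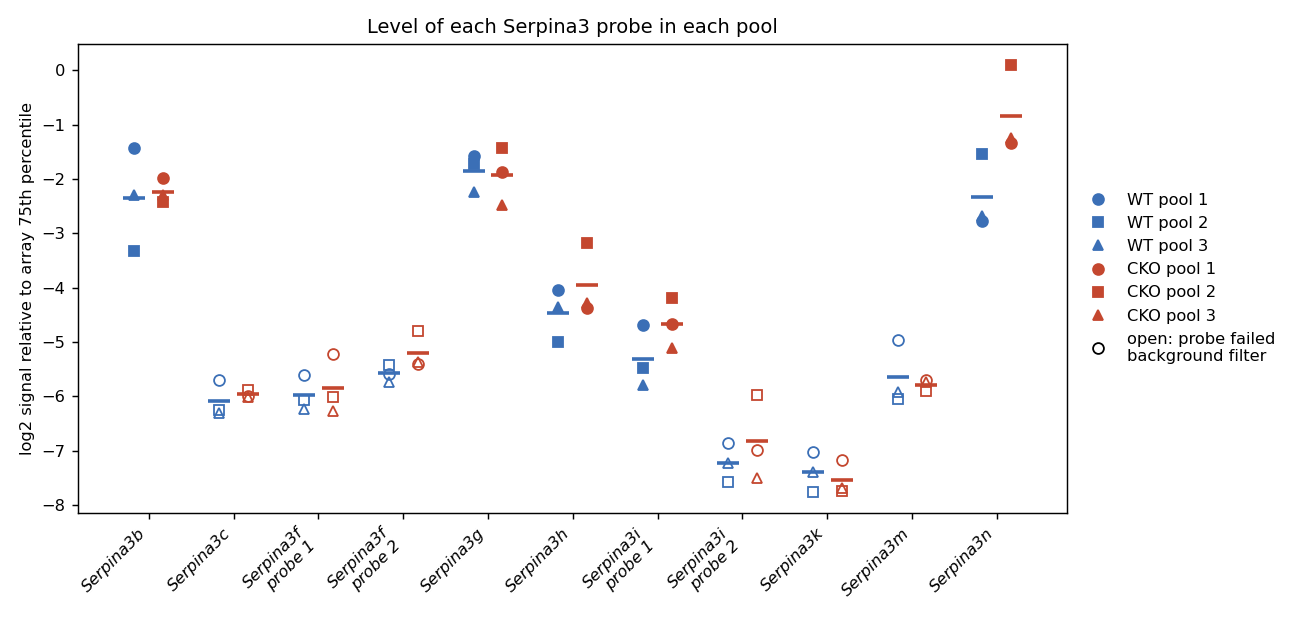
Log2 signal relative to the array 75th percentile (vertical axis) for each of the 11 Serpina3 probes in cluster order, by pool, with bars at genotype means; open symbols are probes that failed the background filter. The 3 CKO pools of Serpina3n all lie above its 3 WT pools, which is not so for Serpina3b, Serpina3g, Serpina3h or Serpina3i. It is also so for the second Serpina3f probe, which failed the filter, with a gap of 0.006.

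The other members fell into those that could be measured and those that could not. The filter asked for signal well above background on all 4 arrays of 1 genotype or of both, and 5 of the 9 members had such a probe: Serpina3n, Serpina3i, Serpina3g, Serpina3h and Serpina3b. Of these, 4 were higher and 1 was lower in CKO pools. In the limma comparison over all 18335 measured genes, 0 of the 5 passed an adjusted p of 0.05, where 0.0273% of all genes did (5 genes, all higher in CKO); at an unadjusted p under 0.05, 1 member (Serpina3n) and 534 higher and 469 lower genes passed. When the fit took pool number as a block, 1 of the 5 (Serpina3n) passed as higher, where 0.393% of all genes did. Serpina3n was chosen by this comparison, and these counts describe it. The CKO pools lay wholly above the WT pools in 1 of the 5 members, Serpina3n, and in 5.7% of all genes. The smallest p that an exact test can reach with 3 pools in each group is 0.1, and none was run on the members.

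Serpina3g, the intracellular cathepsin inhibitor, overlapped between genotypes. It read -1.58, -1.73 and -2.24 in WT pools and -1.88, -1.43 and -2.48 in CKO pools 1, 2 and 3. The means were -1.85 ± 0.34 and -1.93 ± 0.53 (SD, n = 3), a difference of -0.08 (SE 0.29). The probe was well above background on all 4 arrays of each genotype, so the small difference was not one between signals at the floor. The same-numbered pools differed by -0.30, 0.31 and -0.25, with no common sign.

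Serpina3b also overlapped. It read -1.43, -3.33 and -2.30 in WT pools and -1.98, -2.43 and -2.29 in CKO pools, a difference of 0.12 (SE 0.42). The WT spread (SD 0.95) was larger than the CKO spread (SD 0.23), and WT pools gave both the highest and the lowest value. Much of the WT pool 1 value came from 1 array: its second array read 2.18 above its first, and the second array of CKO pool 1 read 1.09 above its first. The Serpina3b difference was 0.45 within slide 1 and -0.55 within slide 2.

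Serpina3h, the transcribed pseudogene, was high in 1 CKO pool. It read -4.04, -5.00 and -4.36 in WT pools and -4.38, -3.18 and -4.28 in CKO pools, a difference of 0.52 (SE 0.38). CKO pool 2 stood above all others, while CKO pools 1 and 3 lay within the WT range. The same-numbered pools differed by -0.34, 1.81 and 0.08, and the difference was 0.89 within slide 1 and -0.29 within slide 2. The probe was well above background on 4 of 4 arrays of each genotype.

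Serpina3i had the largest difference of the 4 measured neighbours. Its first probe read -4.69, -5.48 and -5.79 in WT pools and -4.67, -4.20 and -5.12 in CKO pools, a difference of 0.66 (SE 0.36). The genotypes overlapped, as WT pool 1 was above CKO pool 3 and level with CKO pool 1. WT pools 2 and 3 lay below all CKO pools. This probe cleared background on 1 of 4 arrays in WT and 4 of 4 in CKO, so it entered the comparison through the CKO arrays alone and its difference is bound to favour CKO. The same-numbered pools differed by 0.02, 1.28 and 0.68. The second Serpina3i probe, the one that matched Serpina3h closely, was not well above background on any array. Its processed signal was 80.7 in CKO pool 2 and 24.2 to 27.2 on the other arrays. Its pair differences read -0.11, 1.60 and -0.27, but at this floor those of pools 1 and 3 follow the scaling of the arrays. They give no fold change and no likeness to Serpina3h.

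In all 4 measured neighbours pool pair 2 gave the highest pair difference (0.31 in Serpina3g, 0.90 in Serpina3b, 1.28 in Serpina3i, 1.81 in Serpina3h), as it did in Serpina3n (1.63). In Serpina3n the other pairs were nearly as high, and in the neighbours they were not. The 3 pair differences were all above 0 in Serpina3n and in the first Serpina3i probe, in 2 of 3 pairs in Serpina3h and Serpina3b, and in 1 of 3 in Serpina3g. The neighbours' differences depended on the WT pools. Without WT pool 1 they were 0.97 in Serpina3i, 0.73 in Serpina3h, 0.58 in Serpina3b and 0.05 in Serpina3g, against 1.28 in Serpina3n. Without WT pool 2 they were 0.58, 0.25, -0.37 and -0.02 in the same order, against 1.90 in Serpina3n.

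**Figure D2:**
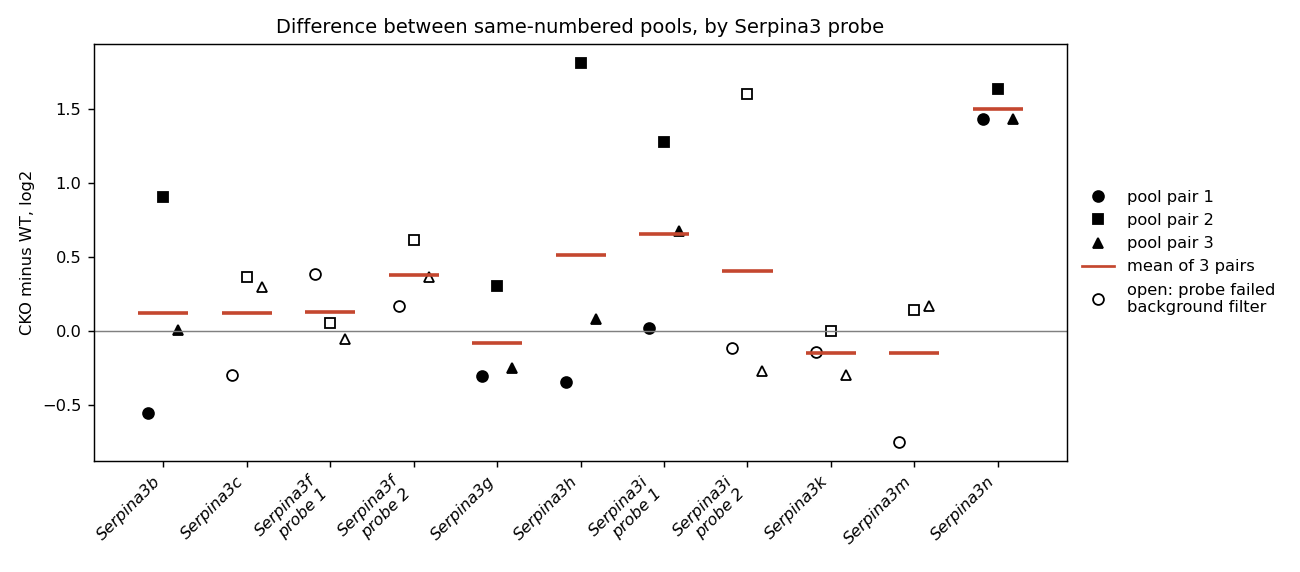
CKO minus WT difference between same-numbered pools on the log2 scale (vertical axis) for each Serpina3 probe in cluster order, with a bar at the mean of the 3 pairs; open symbols are probes that failed the background filter. The Serpina3n pairs lie together between 1.43 and 1.63, and those of Serpina3h run from -0.34 to 1.81.

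The members that did not pass the filter were Serpina3c, Serpina3f, Serpina3k and Serpina3m. Serpina3c, with the upstream region closest to that of Serpina3n, was well above background on 0 of 4 arrays of either genotype; its processed signals ran from 40.9 to 86.7, and it read -5.69, -6.24 and -6.31 in WT pools and -5.99, -5.88 and -6.01 in CKO pools. Serpina3k and Serpina3m, the liver-secreted members, were likewise not well above background on any array, with CKO minus WT readings of -0.15 and -0.14. The first Serpina3f probe was not well above background on any array and read 0.13 higher in CKO. The second Serpina3f probe was well above background on 1 CKO array and no WT array and read 0.38 higher in CKO. Its CKO pools all lay above its WT pools, with a gap of 0.006. These readings lie at the floor of the array and give no fold change. Whether these genes were expressed below the arrays' sensitivity cannot be told from such probes.

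Set against its neighbours pool by pool, Serpina3n was apart in each CKO pool. Relative to its WT mean, Serpina3n stood at -0.44, 0.79 and -0.35 in WT pools and at 0.99, 2.43 and 1.08 in CKO pools. The mean of Serpina3b, Serpina3g, Serpina3h and Serpina3i, each relative to its own WT mean, stood at 0.56, -0.39 and -0.18 in WT pools and at 0.27, 0.69 and -0.05 in CKO pools. The 2 genotypes overlapped in the neighbours' mean and did not in Serpina3n. The overlap in the neighbours' mean rested on WT pool 1, as WT pools 2 and 3 lay below all CKO pools. The Serpina3n difference exceeded that of the neighbours by 1.20 on the log2 scale; it was 0.69 without WT pool 1, 0.87 without the second array of WT pool 1 and 1.78 without WT pool 2. This contrast includes Serpina3i, whose probe passed through CKO arrays alone; with genes well above background on all arrays it was 1.31.

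**Figure D3:**
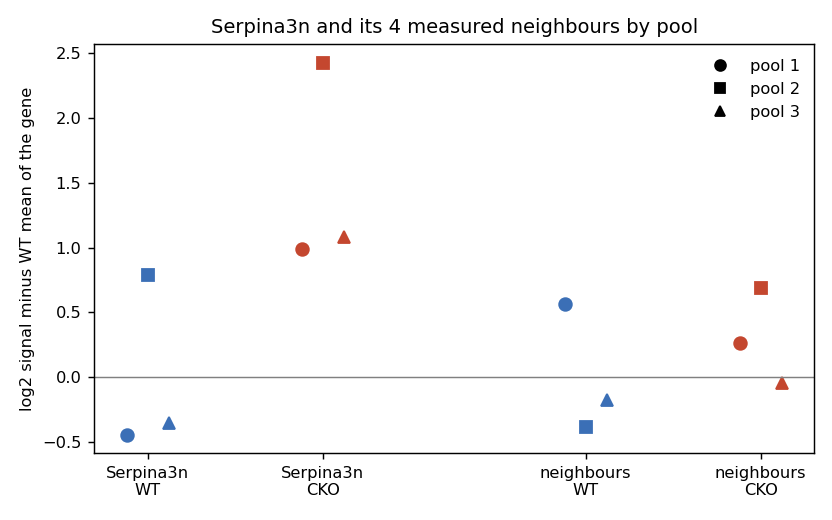
Log2 signal minus the WT mean of the same gene (vertical axis) for Serpina3n and for the mean of its 4 measured neighbours (Serpina3b, Serpina3g, Serpina3h, Serpina3i), 1 point per pool. Serpina3n lies at 0.99 or above in CKO pools, and the neighbours' mean at 0.69 or below in all pools.

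Genes beyond the first and last of the members were read in the same way, so that Serpina3a, which is not a member, counts among them. Of the 10 protein-coding genes on each side, clone and accession names left out, 10 of 20 were measured. Of those measured, 2 were higher and 8 lower in CKO. With or without the pool block 0 passed, and their median difference was -0.10, against 0.00 over all genes. The direction of this median rested on WT pool 1: it was 0.07 without that pool, -0.03 without its second array and -0.32 without WT pool 2. On the Serpina3n side the nearest measured gene was Dicer1, the microRNA-processing ribonuclease, at 0.17 (SE 0.13), followed by Clmn at -0.12 (SE 0.15) and Glrx5, a mitochondrial iron-sulphur cluster protein, at -0.05 (SE 0.11). On the other side the nearest measured gene was Serpina9 at -0.23 (SE 0.27), followed by Serpina11 at 0.18 (SE 0.30). Gsc, Serpina3a, Serpina5 and Serpina12, which lie closer, were not among the measured genes. Serpina3j, inside the cluster, was not well above background on any array.

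Among other serpins, 1 was called in the blocked comparison. Of 7 measured genes of 16 listed in the same clade A (5 of them also among the flanking genes), 2 were higher and 5 lower, with a median of -0.23 that was 0.10 without WT pool 1, -0.01 without its second array and -0.49 without WT pool 2; the liver antitrypsins Serpina1e at -0.52 (SE 0.36), Serpina1a at -0.27 (SE 0.33) and Serpina1c at -0.25 (SE 0.36) were among the lower values, and 0 passed. Probes of the Serpina1 paralogues may share signal, which was not tested. Of 14 measured genes of 19 listed in other clades, 8 were higher and 6 lower, with a median of 0.05 that was -0.05 with no filter on dim probes. Serpinf2, alpha-2-antiplasmin, the main inhibitor of plasmin, read -5.74, -5.09 and -5.14 in WT pools and -4.09, -3.54 and -3.82 in CKO pools. Its difference was 1.51 (SE 0.27), and it passed in limma with the pool block (adjusted p = 0.0269) and not without (0.174); it cleared background on 2 of 4 arrays in WT and 4 of 4 in CKO, so it entered the comparison through the CKO arrays alone, which favours a higher CKO value. Serpinb1b at 0.43 (SE 0.32) and Serpinh1, a collagen chaperone, at 0.27 (SE 0.15) did not pass.

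Serpina3n is known to be induced through cytokines that signal by gp130 and STAT3, and genes of that pathway were read from a list. Of 24 listed genes, 20 were measured; 15 were higher and 5 lower in CKO, with a median of 0.15 (0.09 to 0.17 over the alternatives), where 49.4% of all genes were higher. In limma 0 passed an adjusted p of 0.05 without the block, and 1, Socs3, passed with it. Socs3, the feedback inhibitor of this signalling, read -1.70, -2.0 and -1.89 in WT pools and -0.19, -1.25 and -0.80 in CKO pools, a difference of 1.11 (SE 0.26), with a blocked adjusted p of 0.0316 against 0.327 without the block. Osmr, the oncostatin M receptor, read -1.71, -1.79 and -1.93 in WT pools and -1.05, -1.03 and -1.01 in CKO pools, a difference of 0.78 (SE 0.15) that did not pass (blocked adjusted p = 0.0838). The genotypes did not overlap in these 2 genes and overlapped in Stat3 itself, at 0.38 (SE 0.28), and in Nfkbiz, at 0.36 (SE 0.24).

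Secreted acute phase genes were fewer. Of 20 listed, 10 were measured; 8 were higher and 2 lower, with a median of 0.39, and 0 passed with or without the block. The median was -0.01 with no filter on dim probes and 0.10 without CKO pool 1. Ceruloplasmin (Cp), the copper-carrying ferroxidase, was 0.59 higher (SE 0.17) with CKO pools all above WT pools. Lbp, the lipopolysaccharide-binding protein, was 0.79 higher (SE 0.32), A2m, the broad protease inhibitor alpha-2-macroglobulin, 0.76 higher (SE 0.31) and Lrg1 0.45 higher (SE 0.35), each with overlapping pools. A2m cleared background on 2 of 4 arrays in WT and 4 of 4 in CKO, so it too entered through the CKO arrays alone.

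Reactive astrocyte genes, of which Serpina3n is often counted one, were measured for 26 of 34 listed genes without it. In CKO pools 23 were higher and 3 lower, with a median of 0.34 (0.22 without CKO pool 2 and 0.53 without CKO pool 3); 0 passed without the block and 3 (Timp1, Cd14 and Gfap) with it. Timp1, the metalloproteinase inhibitor, read -3.00, -3.39 and -3.51 in WT pools and -1.80, -0.47 and -2.08 in CKO pools, a difference of 1.85 (SE 0.39; blocked adjusted p = 0.0271). Like Serpina3n it was highest in CKO pool 2, but WT pool 2 was not its highest WT pool. Gfap, the astrocyte intermediate filament, read 1.94, 2.37 and 2.16 in WT pools and 2.56, 3.19 and 2.77 in CKO pools, a difference of 0.68 (SE 0.18; blocked adjusted p = 0.0464), with pool 2 highest in both genotypes as for Serpina3n. Cd14 was 1.07 higher (SE 0.25; blocked adjusted p = 0.0215), and Emp1 was 1.04 higher (SE 0.27) and did not pass. These lists overlap, with Osmr and Cp among the genes on more than one, and they were chosen with results of these data known.

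Proteases that Serpina3n or its relatives might meet, namely serine proteases of immune granules, kallikreins, plasminogen activators and cathepsins, were measured for 14 of 20. In CKO pools 9 were higher and 5 lower, with a median of 0.14, and 0 passed with or without the block. The median was -0.22 on slide 2 alone, -0.04 without WT pool 2 and 0.29 without WT pool 1. The lysosomal proteases cathepsin D (Ctsd, 0.35, SE 0.17), cathepsin S (Ctss, 0.24, SE 0.21) and cathepsin H (Ctsh, 0.23, SE 0.22) and tissue plasminogen activator (Plat, 0.27, SE 0.16) had the smallest unadjusted p of the list. The CKO pools of Ctsd lay above all its WT pools, and the other 3 overlapped.

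**Figure D4:**
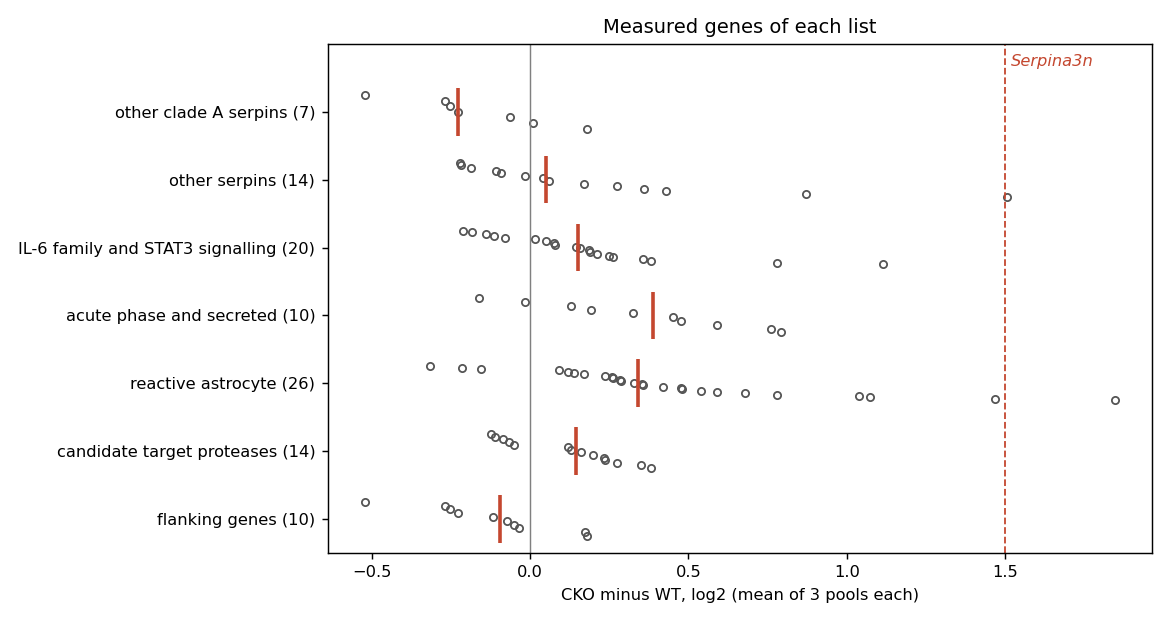
CKO minus WT difference on the log2 scale (horizontal axis) of each measured gene of 7 lists, with the number measured in brackets, a bar at the list's median and a dashed line at the Serpina3n value of 1.50. Timp1 at 1.85 and Serpinf2 at 1.51 lie beyond the dashed line, and the flanking genes run from -0.52 to 0.18.

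Cell type markers were read beside these values. Of 8 astrocyte identity genes, 3 were higher and 5 lower, with a median of -0.04, and the mean of the list stood at -0.01, -0.02 and 0.03 in WT pools and at -0.04, 0.05 and -0.17 in CKO pools relative to its WT mean. Oligodendrocyte genes, from the other glial type that can express Serpina3n, were higher in 6 of 6, with a median of 0.24. Microglial genes were higher in 3 of 6, with a median of 0.06. Of 8 hepatocyte genes only Apoa2 was measured, and the other 7, Alb among them, were not among the measured genes. Endothelial genes were higher in 4 of 6 (median 0.02) and leukocyte and blood genes in 5 of 7 (median 0.17). Hippocampal excitatory neuron genes, from the cell type in which Camk2a-Cre acts, were higher in 2 of 7 and lower in 5, with a median of -0.09. Their mean stood at 0.05, 0.06 and -0.11 in WT pools and at -0.36, -0.36 and -0.24 in CKO pools relative to its WT mean, so the genotypes did not overlap. In limma with the pool block 2 of the 7 passed as lower, where 31 of all 18335 genes did. These 2 were Wfs1 at -0.91 (SE 0.12, adjusted p = 0.0164) and C1ql2 at -1.10 (SE 0.30, adjusted p = 0.0471). Without the block 0 passed. Pcp4 at -0.41 (SE 0.16), Neurod6 at -0.09 (SE 0.12) and Fibcd1 at -0.09 (SE 0.16) were the other lower genes. Slc17a7 at 0.35 (SE 0.14), with CKO pools all above WT pools, and Camk2a at 0.03 (SE 0.13) were higher. The list thus did not move as one. Choroid plexus genes were higher in CKO in 11 of 11, with a median of 0.79; their mean stood at -1.14, 0.42 and 0.73 in WT pools and at 0.92, 0.95 and 0.48 in CKO pools. In the same order of pools Serpina3n read -2.78, -1.54 and -2.68 in WT and -1.34, 0.09 and -1.25 in CKO. The part of choroid plexus, oligodendrocyte or neuronal RNA in the Serpina3n value was not tested. The targeted gene itself, Ctcf, was lower in CKO pools (CKO minus WT -0.87, SE 0.13), with no overlap between genotypes.

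The motifs of factors known in cytokine and acute phase responses were searched on both strands in the promoter windows of 300 bases. The STAT site (TTCNNNGAA) was found in Serpina3f (first of its 2 windows) at 121, Serpina3g at 33 and Serpina3i at 102 bases before the start, and in 8.3% of all 32851 mouse promoter windows. It was not found in Serpina3n, Serpina3c or Serpina3b. At the bases that align with the Serpina3i site, which reads ttcccagaa, the windows of Serpina3n and Serpina3c both read ttAccagaa, with the differing base in capitals, 123 and 120 bases before their starts. The NF-kB motif was found in Serpina3g and Serpina3i (8.46% of all windows), the interferon-type motif (GAAANNGAA) in Serpina3b and Serpina3f (8.56%), where in Serpina3f it overlaps the STAT site, and the C/EBP motif (TTGCNNAA) in Serpina3b and Serpina3f (10.8%). Neither the AP-1 motif (TGANTCA, 7.81%) nor the CTCF core motif (0.557%) was found in any member's window. Serpina3n and Serpina3c had 0 of these 6 motifs, which says only that these letters are not in these windows.

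Across the 6 pools, the measured members did not follow Serpina3n closely. Pearson's r of deviations from genotype means with Serpina3n was 0.58 for Serpina3g, 0.25 for Serpina3i, 0.24 for Serpina3h and -0.72 for Serpina3b. By the pool values r was 0.28 for Serpina3g, 0.60 for Serpina3i, 0.51 for Serpina3h and -0.37 for Serpina3b. Both are descriptions over 6 pools, some of which share a slide. By the pool values, the 5 named genes most like Serpina3n among 14140 were Fuz (r = 0.994), Rnasek (0.992), Cand2 (0.980), Tor4a (0.976) and Vsig8 (0.972). By deviations from genotype means they were Prss36 (0.998), Mansc1 (0.996), Uhrf1 (0.994), Asl (0.994) and Wipi1 (0.993). Their own genotype differences varied: CKO minus WT was -0.71 in Prss36, 0.07 in Wipi1 and 1.36 in Asl, the argininosuccinate lyase. No test was made of these likenesses.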

How the data were processed

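RNA from 6 hippocampal pools was measured on 8 arrays. The deposited processed signal, per the file headers, is a spot intensity from Agilent Feature Extraction 11.5.1.1 (11.5 per the submitters' processing notes), background-subtracted within each array and not normalized between arrays. The authors' deposited flags for background and outliers were used. The authors' deposited value table, also a spot intensity, served as an alternative.

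From these, log2 of the processed signal minus that of the array's 75th percentile of non-control spots was computed, leaving out outlier-flagged spots; 43020 spots gave 39429 probes. A background filter (all 4 arrays of a genotype well above background) left 23648 probes, and the brightest probe stood for each of 18335 genes. Genes were named through RefSeq accession (27508 probes), symbol (3544) or synonym (404), and 7973 probes kept the file's name. The file headers name mm9; promoter coordinates are from GRCm38.p6, and no array coordinates are given. Genotypes were compared with limma 3.58.1 in R 4.3.3 (lmFit, eBayes with trend, two-sided, Benjamini-Hochberg), a step tested on simulated data. Protein sequences were not used here.

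Deviations of same-numbered pools from their genotype means correlated at 0.549, 0.334 and 0.131 for pools 1, 2 and 3 across genes. For differently numbered pools the values ran from -0.480 to 0.123, so pool 3 was hardly apart from them. Deviations from a mean of 3 pools depend on each other, and same-numbered pools share slides. These values therefore do not establish a pairing by sex and age, which are matched per the labels. The pool number as a block was an alternative given beside calls it changed. The labels call the pools biological replicates.

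Between 59.2% and 66.0% of spots per array were well above background, and the number of arrays limits the precision. The arrays of lowest signal were the second ones of each pool 1 (75th percentile 2112 in WT and 2883 in CKO, against 3949 to 5104 in the others).

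The members and lists were chosen with earlier results of these data known. The rule for named genes took all members, Ctcf and the 5 genes most like Serpina3n by each correlation. By the same rule came up to 4 measured genes of each list by unadjusted p, and the nearest flanking genes. Gfap, Wfs1, C1ql2, Pcp4, Neurod6, Fibcd1, Slc17a7, Camk2a, Serpina3j, Serpina11, Clmn, Glrx5, Apoa2 and Alb were named for other reasons, after their values were seen. A gene that this rule takes is not reported here.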

Additional observations from a re-analysis of the deposited data

How the results depend on the processing

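Members and neighbours were read under 25 alternatives, of which 5 blocked fits were chosen after seeing the data. The Serpina3n difference was above 0 in all 25, from 1.04 when CKO pool 2 was left out to 1.90 when WT pool 2 was, and its excess over the neighbours from 0.69 to 1.78. Serpina3i was higher in CKO in 24 of 24, Serpina3h in 23 of 25, Serpina3b in 20 of 25 and Serpina3g in 4 of 25. The Serpina3i probe passed the filter through the CKO arrays alone, which favours CKO. It dropped out of the alternative that asked for signal well above background on all arrays. All alternatives reuse the same pools, so these counts are not independent support. With the replicate block 1 member (Serpina3n) passed, as it did in all 7 fits with that block; in the 18 others, the slide block among them, 0 did. The blocked adjusted p of Serpina3n in limma was 0.00627, and it ranged from 1.86e-05 (pool pair 2 left out) to 0.0432 (second array of WT pool 1 left out). Serpina3n was chosen by this comparison and the 7 fits reuse the same pools. These values therefore describe it and are not a test of it. Fits on 2 pool pairs take most of their spread from other genes.

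Over all genes, the count past the threshold moved from 5 to 103 with the replicate block, 69 with that block and quantile scaling, 3 with normexp and quantile scaling or the deposited value table, 124 with first arrays only, 108 without the second array of WT pool 1 and 0 on slide 2 alone. Leaving out each pool in turn gave 0 to 21 genes. Blocked fits gave 71 without second arrays, 58 without the second array of WT pool 1, and 64, 464 and 208 without pool pair 1, 2 and 3. The cause was not tested. Probes near background (4 of 9 members) limit what can be said of their genes.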
